A study of Mus musculus with 2 samples.

Results

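The genes described here are 10 components of fibroblast growth factor (FGF) signalling that are known from the isthmus, the constriction between midbrain and hindbrain. They were taken by name from 43346 genes with an Ensembl identifier, for their known role and not by a threshold on their values. The genes are the ligands Fgf8, Fgf17 and Fgf18, the receptors Fgfr1, Fgfr2 and Fgfr3, the feedback inhibitors Spry1 and Spry2, and the ETS transcription factors Etv4 and Etv5. Total RNA was sequenced from the midbrain of 2 mouse embryos of the B6NCrl strain at 14.5 days of development, with no treatment and no altered allele named. Each library was made from 1 midbrain of 1 pup, on the submitters' labels, and the pups were collected on different days. The labels also give the sex of both samples as a pool of males and females, which is hard to square with a single animal. The libraries are called embryo 1 and embryo 2, they form 1 group, and no condition could be compared and no p-value is given.

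FGFs of the Fgf8 subfamily are secreted proteins that bind receptor tyrosine kinases together with heparan sulfate. The activated receptor signals mainly through the Ras and ERK kinases, and ERK signalling turns on the Sprouty genes, which dampen the pathway, and the ETS genes Etv4 and Etv5. In the early neural tube Fgf8 from the isthmus patterns midbrain and cerebellum, and Fgf17 and Fgf18 are expressed around the same boundary. A whole midbrain does not show where in the tissue an RNA was made. In bulk tissue fewer cells of a type and less RNA per cell cannot be told apart, and both apply to every level given here.

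The receptors exist in alternative forms, and examples of the exons that set them apart are shown first because the isoform results turn on them. The third immunoglobulin-like loop of Fgfr1, Fgfr2 and Fgfr3 is completed by either of a pair of mutually exclusive exons, called IIIb and IIIc. IIIb forms are typical of epithelia, IIIc forms are typical of mesenchyme and neural tissue, and ligands of the Fgf8 subfamily act mainly on IIIc forms. The sequences below were read from GENCODE M21 transcripts on the GRCm38 assembly and are written 5′ to 3′ on the strand of the gene. Capitals mark the alternative exon, and the 15 lower-case bases on either side belong to the neighbouring exons of the spliced transcript.
Fgfr2 IIIb, chr7:130199758-130199905, minus strand: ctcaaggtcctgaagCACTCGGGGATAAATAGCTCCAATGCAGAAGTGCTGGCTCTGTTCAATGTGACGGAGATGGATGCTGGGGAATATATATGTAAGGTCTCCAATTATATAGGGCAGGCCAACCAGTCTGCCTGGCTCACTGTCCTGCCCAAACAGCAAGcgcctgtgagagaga
Fgfr3 IIIb, chr5:33731281-33731431, plus strand: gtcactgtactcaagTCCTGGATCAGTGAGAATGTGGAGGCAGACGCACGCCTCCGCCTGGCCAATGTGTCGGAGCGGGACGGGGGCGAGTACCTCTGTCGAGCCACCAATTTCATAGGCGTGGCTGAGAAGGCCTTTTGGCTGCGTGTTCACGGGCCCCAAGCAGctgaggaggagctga
Fgfr3 IIIc, chr5:33732117-33732261, plus strand: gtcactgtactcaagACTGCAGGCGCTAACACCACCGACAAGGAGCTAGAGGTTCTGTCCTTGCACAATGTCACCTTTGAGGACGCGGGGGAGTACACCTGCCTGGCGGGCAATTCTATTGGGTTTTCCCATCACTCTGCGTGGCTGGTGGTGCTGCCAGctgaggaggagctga

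The Fgfr3 pair shows how far the alternatives of a gene differ, and the IIIb exon of Fgfr2 shows the same class of exon in a related receptor. The IIIb exon was 151 bases long in Fgfr3 and 148 bases in Fgfr2, and the IIIc exon of Fgfr3 was 145 bases long. In global alignments the pair of Fgfr3 shared 47.4% of positions, the IIIb exons of Fgfr2 and Fgfr3 shared 51.0%, and the IIIb exon of Fgfr2 and the IIIc exon of Fgfr3 shared 52.6%. The only pair of the same class thus lay between the others, and a lone pair cannot show whether exons of a class are alike.

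Of the 10 genes, 9 reached a TPM of at least 1 in each embryo, and Fgf8 did not (TPM is the level of a gene per transcript length, as a share of all transcripts in a library). The same threshold was reached by 33.6% of all Ensembl genes and by 59.5% of protein-coding genes. The median of the members' mean levels was 9.11 TPM, against 4.67 TPM over all protein-coding genes. Estimated reads on genes came to 31687015 in embryo 1 and 29182364 in embryo 2. The tissue label was checked against markers: 7 of 7 midbrain markers passed this threshold, among them Otx2, the forebrain and midbrain homeobox gene. The hindbrain genes Hoxb1, Hoxa3 and Hoxb4 had 0 counts in both, and of the forebrain markers only Lhx2 passed it.

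The strongest contrast among the ligands was between Fgf8 and the other members of its subfamily. Fgf8 (chromosome 19, 45736798 to 45742915, minus strand), the organizing signal of the isthmus, had 3 counts in embryo 1 and 8 in embryo 2. These gave levels of 0.15 and 0.42 TPM, a mean of 0.285 ± 0.191 TPM (SD, n = 2). Both values lay below the detection threshold, and the level in embryo 1 equalled the floor that 3 counts set. After scaling, embryo 2 was 2.95-fold higher with a 95% counting interval of 0.709 to 17.3, so that a difference was not detectable at this depth. All Fgf8 counts fell on 2 of its 6 transcripts: Fgf8-202, of 268 codons, took 3 counts in embryo 1 and 3.04 in embryo 2, and Fgf8-206, of 215 codons, took 4.96 counts in embryo 2 only.

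Fgf17 (chromosome 14, 70636203 to 70642268, minus strand), a ligand of the same subfamily with a part in midline cerebellar growth, was detected in both embryos. Its level was 5.19 TPM in embryo 1, from 158 counts, and 2.40 TPM in embryo 2, from 73 counts. The mean was 3.80 ± 1.97 TPM (SD, n = 2). Embryo 1 was the higher one, by 1.95-fold in scaled counts with a counting interval of 1.47 to 2.61. Fgf18 (chromosome 11, 33117430 to 33147400, minus strand), the remaining ligand of the subfamily, stood at 3.81 TPM in embryo 1 and 4.29 TPM in embryo 2. Its mean was 4.05 ± 0.339 TPM (SD, n = 2), and the ratio of embryo 2 over embryo 1 was 1.25 with a counting interval of 0.896 to 1.74. Both embryos' values for Fgf18 lay between the values of Fgf17, so the order of these ligands was not settled by their spread. Fgf17 lay above Fgf8 in each embryo, and the ranges of these ligands did not overlap. The size of that step is poorly set by the few Fgf8 counts: it was 13.3-fold in mean TPM, while the posterior mean TPM were 3.72 for Fgf17 and 0.69 for Fgf8.

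**Figure D1:**
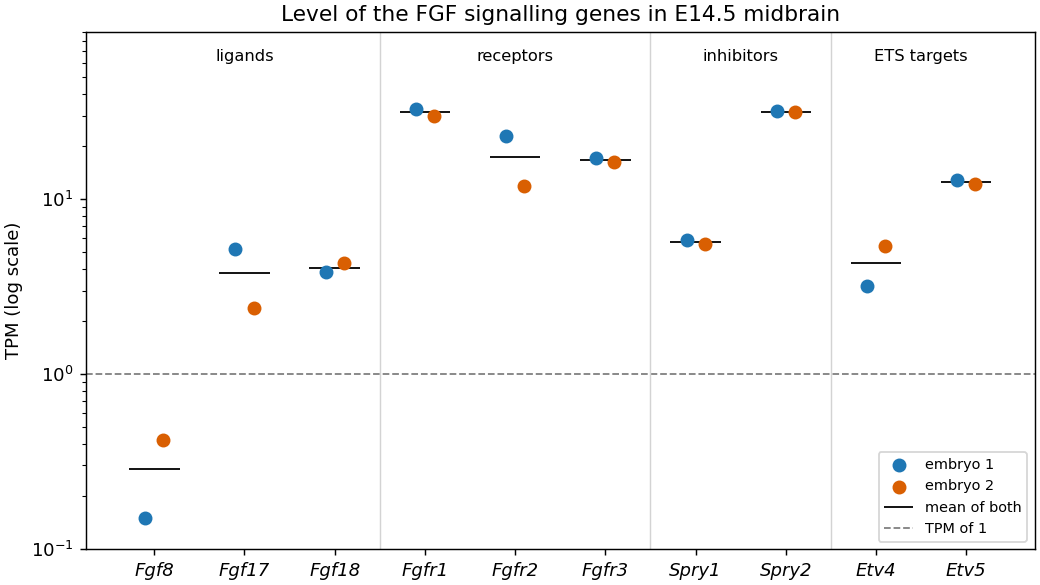
Level of the 10 genes in each embryo, in TPM on a log scale, grouped by role; points are the embryos and bars their mean. Fgf8 is the only gene below the dashed line at 1 TPM, and the embryos lie farthest apart for Fgf17, Fgfr2 and Etv4 among the genes above it.

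The 3 receptors had the highest summed level of the roles, at 73.0 TPM in embryo 1 and 58.2 TPM in embryo 2. The 3 ligands summed to 9.15 and 7.11 TPM. The inhibitors and the ETS genes, summed below, are 2 genes each, and a sum depends on the number of genes. By the median of the mean levels the inhibitors, at 18.7 TPM, lay slightly above the receptors, at 17.5 TPM. Fgfr1 (chromosome 8, 25513654 to 25575718, plus strand), the receptor through which Fgf8 signals in the midbrain and isthmus, led the receptors. It stood at 32.7 TPM in embryo 1 and 30.0 TPM in embryo 2, a mean of 31.3 ± 1.88 TPM (SD, n = 2), above 77.5% of protein-coding genes. The embryos differed little, since the ratio of embryo 2 over embryo 1 was 1.04 with a counting interval of 0.980 to 1.10. Fgfr3 (chromosome 5, 33721674 to 33737068, plus strand), a receptor of neural progenitors and the astrocyte lineage, had 1184 counts in each embryo. Its levels were 17.2 and 16.2 TPM, a mean of 16.7 ± 0.686 TPM (SD, n = 2), and the ratio of embryo 2 over embryo 1 was 1.11 with a counting interval of 1.02 to 1.20. Exons of Fgfr1 overlap the antisense gene Gm16159, which had 0 counts in both embryos, and exons of Fgfr3 and Spry1 each overlap a predicted gene on the other strand that was not analysed here.

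Fgfr2 (chromosome 7, minus strand), a receptor of neural progenitors as well as of epithelia and mesenchyme, was the receptor in which the embryos were farthest apart. Its level was 23.1 TPM in embryo 1, from 1177 estimated counts, and 11.9 TPM in embryo 2, from 540 counts. The mean was 17.5 ± 7.91 TPM (SD, n = 2). Embryo 1 was 1.97-fold higher, with a counting interval of 1.78 to 2.18. With all Fgfr2 transcripts counted, the range of Fgfr2 enclosed that of Fgfr3, so these receptors were not apart in level. Mesenchyme markers, summed at 399.7 TPM in embryo 1 and 9.45 TPM in embryo 2, lay in the same direction as Fgfr2 and Fgf17, and their part in these values was not tested.

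The Fgfr2 value includes a transcript that starts outside the usual gene. Without it Fgfr2 spans 130162451 to 130266263 on chromosome 7, a stretch of 104 kb. Fgfr2-217, of 182 codons, begins with exons of 210 bases (133123141 to 133123350) and 104 bases (133081757 to 133081860) that overlap exons of Ctbp2, a transcriptional corepressor gene on the same strand. The nearer of these exons lies 2.82 Mb from the other Fgfr2 transcripts. Ctbp2 stood at 60.5 TPM in embryo 1 and 46.3 TPM in embryo 2. Fgfr2-217 was assigned 8.07 TPM in embryo 1 and 4.22 TPM in embryo 2, which is 34.9% and 35.4% of the gene. With this transcript left out, an alternative added after the data were seen, Fgfr2 stood at 15.04 TPM in embryo 1 and 7.71 TPM in embryo 2, a mean of 11.4 ± 5.18 TPM (SD, n = 2). The embryos were then 2.10-fold apart, with a counting interval of 1.85 to 2.38, and Fgfr2 moved from the third to the fifth place among the 10 genes. Both Fgfr2 values then lay below those of Fgfr3, at 17.2 TPM in embryo 1 and 16.2 TPM in embryo 2, so these receptors were apart. The range of Fgfr2 then enclosed that of Etv5, at 12.9 and 12.2 TPM. How reads of Ctbp2 and Fgfr2 were divided was not tested.

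The IIIc exon was carried by most of the receptor RNA that could be classed. Fgfr1 transcripts with the IIIc exon stood at 27.4 TPM in embryo 1 and 23.5 TPM in embryo 2, and both Fgfr1 transcripts with the IIIb exon had 0 counts. A transcript of 299 codons marked for nonsense-mediated decay, Fgfr1-208, holds both exons and took 0.83 and 1.48 TPM. For Fgfr3 the IIIc exon was at 13.3 TPM in embryo 1 and 13.2 TPM in embryo 2, and the IIIb exon at 2.32 and 1.56 TPM. The IIIc share of the sum was 85.1% in embryo 1 and 89.4% in embryo 2, a mean of 87.3 ± 3.02% (SD, n = 2). For Fgfr2 the IIIc exon was at 8.95 TPM in embryo 1 and 3.57 TPM in embryo 2, and the IIIb exon at 2.5 and 0.67 TPM. The IIIc share of Fgfr2 was 78.2% in embryo 1 and 84.2% in embryo 2, a mean of 81.2 ± 4.27% (SD, n = 2). These shares are estimates by the authors' quantifier, and their posterior means lay lower for Fgfr2, at 72.7% in embryo 1 and 72.1% in embryo 2. Transcripts with neither exon took 50.5% and 64.5% of Fgfr2, and Fgfr2-217 is among them.

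**Figure D2:**
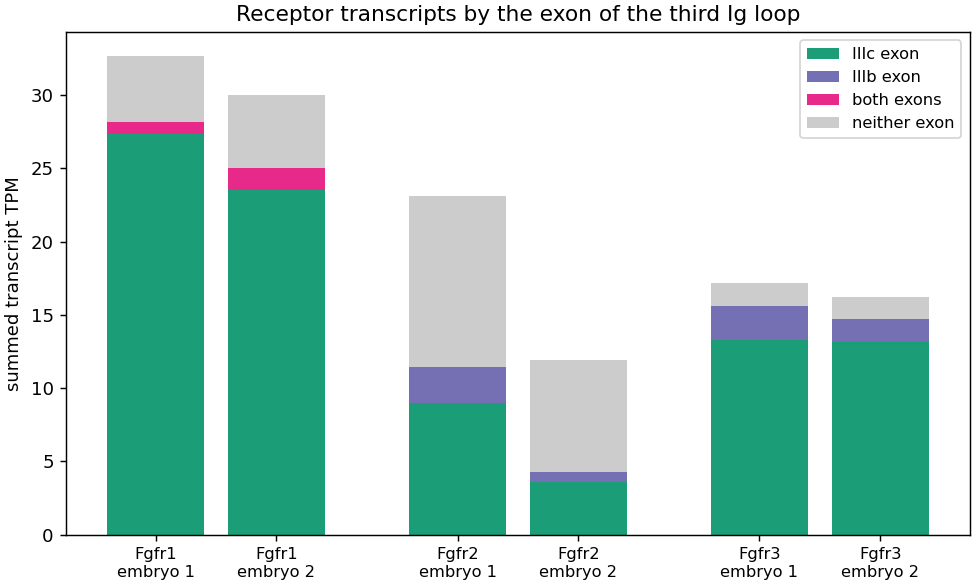
Summed TPM of the receptor transcripts in each embryo, split by the exon of the third loop they hold. IIIc makes up the largest part of Fgfr1 and Fgfr3 in both embryos, and transcripts with neither exon make up the largest part of Fgfr2, at 11.7 TPM in embryo 1 and 7.69 TPM in embryo 2.

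The first immunoglobulin-like loop is encoded by an exon of its own, whose absence gives the shorter beta form. Among transcripts with the IIIb or IIIc exon, this loop was present in most of the Fgfr1 level and absent from most of the Fgfr2 level. Transcripts with neither exon, 50.5% and 64.5% of Fgfr2, were not classed for it. Of the classed transcripts, those without the first loop made up 25.4% of Fgfr1 in embryo 1 and 17.9% in embryo 2, a mean of 21.7 ± 5.35% (SD, n = 2). In Fgfr2 they made up 73.4% in embryo 1 and 92.2% in embryo 2, a mean of 82.8 ± 13.3% (SD, n = 2). The leading Fgfr1 transcript was Fgfr1-202, of 820 codons with the first loop, at 16.4 TPM in embryo 1 and 14.6 TPM in embryo 2. Fgfr1-203, of 733 codons without it, stood at 6.96 and 4.21 TPM. The leading Fgfr2 transcript of the usual gene was Fgfr2-207, of 723 codons with the IIIc exon and without the first loop, at 5.90 TPM in embryo 1 and 2.82 TPM in embryo 2. Fgfr2-215, of 840 codons with both the IIIc exon and the first loop, was at 3.05 TPM in embryo 1 and 0.25 TPM in embryo 2. Its posterior means were 1.75 and 0.25 TPM, and the authors' intervals around them, 0.468 to 2.99 TPM and 1.70e-05 to 0.669 TPM, overlapped. The maximum-likelihood value of embryo 1 lay above its interval, so the level of this transcript was uncertain.

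Within Fgfr3 the split among IIIc transcripts was not settled by the data. Fgfr3-209, of 801 codons, was assigned 8.44 TPM in embryo 1 and 3.74 TPM in embryo 2, and Fgfr3-201, of 800 codons, 0.80 and 6.38 TPM. The authors' intervals overlapped between the embryos for each, at 4.40 to 9.47 and 1.78 to 5.93 TPM for Fgfr3-209 and at 0.000129 to 4.21 and 1.60 to 8.40 TPM for Fgfr3-201. Their sum over all IIIc transcripts, given above, was nearly the same in both embryos.

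**Figure D3:**
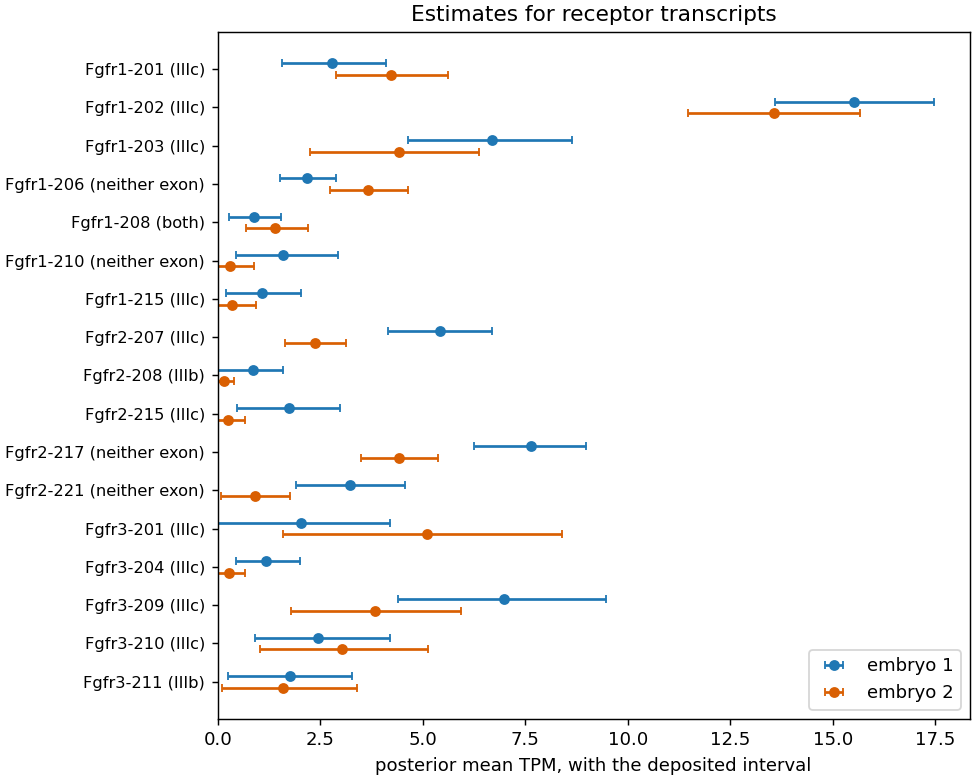
Posterior mean TPM of receptor transcripts in each embryo, with the interval the authors deposited, whose level is not stated. The intervals of the embryos do not overlap for Fgfr2-207, Fgfr2-217 and Fgfr2-221, all higher in embryo 1, while those of Fgfr3-201 and Fgfr3-209 are wide and overlap.

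Spry2 and Fgfr1 had the highest levels of the 10 genes and were not apart: Spry2 led in the mean, and Fgfr1 led in embryo 1 and by posterior mean TPM, at 32.4 against 30.7. Spry2 (chromosome 14, 105891947 to 105896819, minus strand), an intracellular inhibitor of Ras and ERK signalling that FGF signals induce, had 1213 counts in embryo 1 and 1191 in embryo 2. These gave 31.9 and 31.4 TPM, a mean of 31.6 ± 0.375 TPM (SD, n = 2), above 77.7% of protein-coding genes. Its ratio of embryo 2 over embryo 1 was 1.09, with a counting interval of 1.00 to 1.18. Spry1 (chromosome 3, 37639947 to 37644598, plus strand), the related inhibitor, stood at 5.82 TPM in embryo 1 and 5.55 TPM in embryo 2, a mean of 5.69 ± 0.191 TPM (SD, n = 2). The ratio for Spry1 was 1.05, with a counting interval of 0.883 to 1.26. Both inhibitors were thus close between the embryos, and their ranges did not overlap with each other. Spry1-201 and Spry1-203, which encode the same 313 codons, each took nearly equal parts of the Spry1 level.

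Of the ETS genes, Etv5 was the higher and Etv4 the more variable. Etv5 (chromosome 16, 22381309 to 22439719, minus strand) stood at 12.9 TPM in embryo 1 and 12.2 TPM in embryo 2, a mean of 12.5 ± 0.438 TPM (SD, n = 2). The ratio of embryo 2 over embryo 1 was 1.02, with a counting interval of 0.933 to 1.12. Etv4 (chromosome 11, 101769742 to 101785371, minus strand), whose product belongs to the same PEA3 group of transcription factors, had 124 counts in embryo 1 and 191 in embryo 2. Its levels were 3.20 and 5.43 TPM, a mean of 4.32 ± 1.58 TPM (SD, n = 2). Embryo 2 was the higher one, by 1.71-fold with a counting interval of 1.35 to 2.16, the opposite direction to Fgf17 and Fgfr2. Etv4-202, of 480 codons, stood at 2.79 TPM in embryo 1 and 1.85 TPM in embryo 2, while Etv4-201, of 486 codons, was listed at 0 in embryo 1 and at 1.36 TPM in embryo 2. The authors' intervals of both transcripts overlapped between the embryos.

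The order of the mean levels was Spry2, Fgfr1, Fgfr2, Fgfr3, Etv5, Spry1, Etv4, Fgf18, Fgf17 and Fgf8. With all transcripts counted, neighbours whose ranges over the embryos overlapped were Spry2 and Fgfr1, Fgfr2 and Fgfr3, Etv4 and Fgf18, and Fgf18 and Fgf17. The other 5 neighbouring pairs did not overlap, and the widest of those steps were from Fgf17 to Fgf8 and, at 2.21-fold, from Etv5 to Spry1. Inhibitors summed to 37.7 TPM in embryo 1 and 36.9 TPM in embryo 2, and ETS genes to 16.1 and 17.7 TPM. No genes of like pattern are named, since 2 libraries of 1 group give no pattern over conditions.

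Most members were close between the embryos, and Fgf17, Fgfr2 and Etv4 were the farthest apart of those with at least 100 summed counts. The median absolute log2 ratio of scaled counts was 0.15 over the 9 members with at least 100 summed counts and 0.23 over the 14011 genes with that many. Fgf8 fell under this minimum. None of the 9 was at least 2-fold apart, against 4.78% of all genes. At least 1.5-fold apart were 3 members, Fgf17, Fgfr2 and Etv4, against 14.2% of all genes. These 3 lay inside the central 95% of log2 ratios over the 14011 genes, which ran from -1.16 to 0.80. Of all genes 3.35% were at least 2-fold higher in embryo 1 and 1.43% at least 2-fold higher in embryo 2. Fgf17 and Fgfr2 lay just inside the 2-fold mark, with log2 ratios of embryo 2 over embryo 1 of -0.96 and -0.98, and each passed it under some of the other scalings. The biological coefficient of variation between the embryos was 26.7% over 18910 genes.

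The direction of the small differences depended on the scaling. With TMM scaling (which sets the bulk of genes equal) 7 of the 9 members were higher in embryo 2, and with scaling to the ERCC spike-ins 4 were. Under TMM scaling 49.4% of the 14011 genes with at least 100 summed counts were higher in embryo 1. In the ratio of deposited TPM 2 of the 9 were higher in embryo 2, namely Fgf18 and Etv4. The median ratio of all genes moved by -0.11 on the log2 scale with the spike-ins and lay at -0.13 in TPM. Fgf17 and Fgfr2 were higher in embryo 1 under every scaling run, and Fgf18 and Etv4 were higher in embryo 2. Counts of genes higher in either embryo are given with TMM scaling in what follows.

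**Figure D4:**
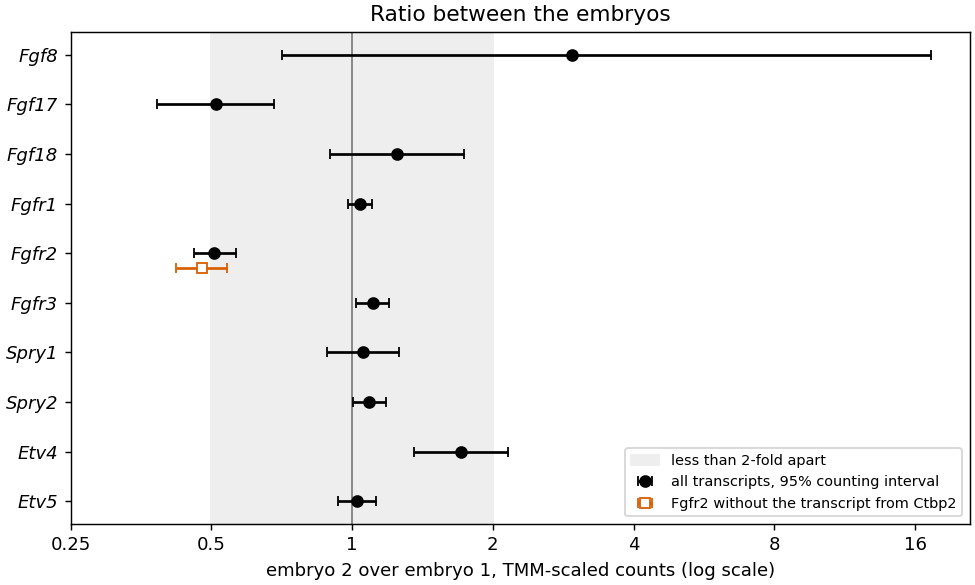
Ratio of TMM-scaled counts of embryo 2 over embryo 1 for each gene on a log axis, with the 95% counting interval; the grey band marks less than 2-fold. Fgf17 and Fgfr2 lie at the lower edge of the band and Etv4 toward its upper part, and the open square shows Fgfr2 without Fgfr2-217 just outside.

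Markers of several other cell types were higher in embryo 1, as Fgf17 and Fgfr2 were. Most genes of the young neuron, astrocyte lineage and oligodendrocyte precursor lists were higher in embryo 2. Of the mesenchyme and meninges list 9 of 9 genes were higher in embryo 1, and none was at 0 in either. For scale, 49.4% of all genes with at least 100 summed counts were higher in embryo 1. In the cell cycle list all 7 genes had their higher value in embryo 1 (268 against 128 TPM), as did all 5 microglia genes (73.9 against 34.0 TPM), all 5 endothelium genes (122 against 78.9 TPM) and all 4 choroid plexus genes. The choroid plexus sum, 106 against 6.03 TPM, was carried by Ttr at 96.3 and 0.37 TPM, and Folr1 stood at 6.24 and 5.22 TPM. The 5 erythroid genes were likewise all higher in embryo 1 (8319 against 5470 TPM). Epithelium genes summed to 5.20 TPM in embryo 1 and 3.04 TPM in embryo 2, and 4 of the 5 with counts were higher in embryo 1. Epcam, the highest of them, was higher in embryo 2, at 2.02 and 2.43 TPM. Cdh1 was 6.90-fold higher in embryo 1, with a counting interval of 4.15 to 12.2. Krt5 was at 0 in both, and Krt14 had 1 count in embryo 1 and 0 in embryo 2. The progenitor list was closer, with 5 of 7 genes higher in embryo 1 and sums of 1970 and 2074 TPM. The young neuron list had 1 of 5 genes higher in embryo 1 and sums of 4035 and 4428 TPM, and oligodendrocyte precursor genes 1 of 5, at 50.7 and 57.6 TPM. That precursor gene, Pdgfra, was 2.50-fold higher in embryo 1, with a counting interval of 2.20 to 2.85. The astrocyte lineage list had 2 of 5 genes higher in embryo 1 and sums of 115 and 129 TPM, with Gfap at 0 in embryo 2. Their part in the values of Fgf17, Fgfr2 and its IIIb transcripts, and Etv4 was not tested.

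Among 15 other secreted FGFs, 3 were detected by the same threshold, and all of these lay above Fgf17 and Fgf18. Fgf15, an FGF of the endocrine subfamily that is also made in the embryonic brain, stood at 46.9 TPM in embryo 1 and 30.1 TPM in embryo 2. Fgf3, a ligand with a known part in inner ear and hindbrain development, was at 13.3 and 17.5 TPM, and Fgf9, a ligand made by neurons and epithelia, at 10.7 and 15.3 TPM. Fgf4, Fgf6, Fgf16 and Fgf21 had 0 counts in both embryos. Of the 4 with enough counts, 2 were higher in each embryo, and none was 2-fold apart. The intracellular FGFs, which act on sodium channels rather than receptors, were all 4 detected, led by Fgf13 at 80.6 and 57.1 TPM, Fgf14 at 22.9 and 16.5 TPM and Fgf12 at 10.7 and 14.7 TPM.

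The other receptors and co-receptors were all higher in embryo 1, in 7 of 7 genes by any amount and in 4 of 4 with at least 100 counts, where 49.4% of all genes were. For Fgfr4, Fgfrl1, Kl and Klb the counting interval of the ratio included 1, and for the FLRT genes it did not. Their median log2 ratio was -0.43, none was 2-fold apart, and 4 of 7 were detected. The leading ones were the FLRT membrane proteins, which bind FGF receptors: Flrt3 stood at 50.2 TPM in embryo 1 and 30.8 TPM in embryo 2, Flrt2 at 25.7 and 18.7 TPM, and Flrt1 at 8.19 and 5.47 TPM. All 15 genes of the transduction list, from the adaptor Frs2 to ERK, were detected, with 7 higher in embryo 1, 8 in embryo 2, none 2-fold apart, and a median log2 ratio of 0.02. The highest was Map2k2, a kinase that activates ERK, at 191 and 183 TPM.

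Of 9 other feedback and target genes in the tables, all were detected, 5 were higher in embryo 1 and 4 in embryo 2, none was 2-fold apart, and the median log2 ratio was -0.20. Cnpy1, an endoplasmic reticulum protein tied to FGF signalling at the isthmus in fish, stood at 79.7 TPM in embryo 1 and 52.5 TPM in embryo 2, above every one of the 10 members. Dusp4 and Dusp6, phosphatases that switch off ERK, stood at 45.5 and 30.4 TPM and at 20.2 and 15.9 TPM. Of 10 heparan sulfate genes all were detected, 4 were higher in embryo 1 and 6 in embryo 2, and the median log2 ratio was 0.02. Sulf2, which removes sulfate groups from heparan sulfate, was at 82.8 and 83.1 TPM, Ext2, a chain polymerase, at 56.1 and 47.7 TPM, and Sulf1 at 31.5 and 21.04 TPM. Hs6st3, a heparan sulfate sulfotransferase, was 3.02-fold higher in embryo 2, with a counting interval of 2.22 to 4.15 and levels of 2.30 and 6.29 TPM.

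All 10 transcription factors and signals of the midbrain and isthmus list were detected, 5 higher in each embryo, with a median log2 ratio of -0.02. Otx2 stood at 99.9 TPM in embryo 1 and 76.3 TPM in embryo 2, En1, a homeobox gene of midbrain and isthmus, at 13.5 and 14.3 TPM, and Gbx2, which marks the hindbrain side of the boundary, at 9.91 and 9.18 TPM. Wnt1, the signal made on the midbrain side of the isthmus, was at 3.28 TPM in embryo 1 and 1.01 TPM in embryo 2, that is 2.93-fold higher in embryo 1 with a counting interval of 2.08 to 4.21. All 10 of these genes thus had higher mean levels than Fgf8, whose mean was 0.285 TPM.

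Splicing factors from families with members known to act on the receptor exons were present unevenly. Of 7 such genes 5 were detected and had at least 100 summed counts. Of these 5, 2 were higher in embryo 1 and 3 in embryo 2, none was 2-fold apart, and the median log2 ratio was 0.30. Ptbp2, a neural splicing repressor, stood at 212 TPM in embryo 1 and 155 TPM in embryo 2, Rbfox2 at 80.0 and 89.2 TPM and Rbfox1 at 82.6 and 85.8 TPM. Esrp1 and Esrp2, epithelial factors that favour IIIb, did not reach a TPM of 1 in either embryo and fell under the minimum of counts. Esrp1, with 47 counts in embryo 1 and 15 in embryo 2, was 2.83-fold higher in embryo 1, with a counting interval of 1.55 to 5.45. Esrp2 had 5.69 and 1.17 counts, and its interval of 0.657 to 249 included 1. Their part in the receptor isoforms was not tested.

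**Figure D5:**
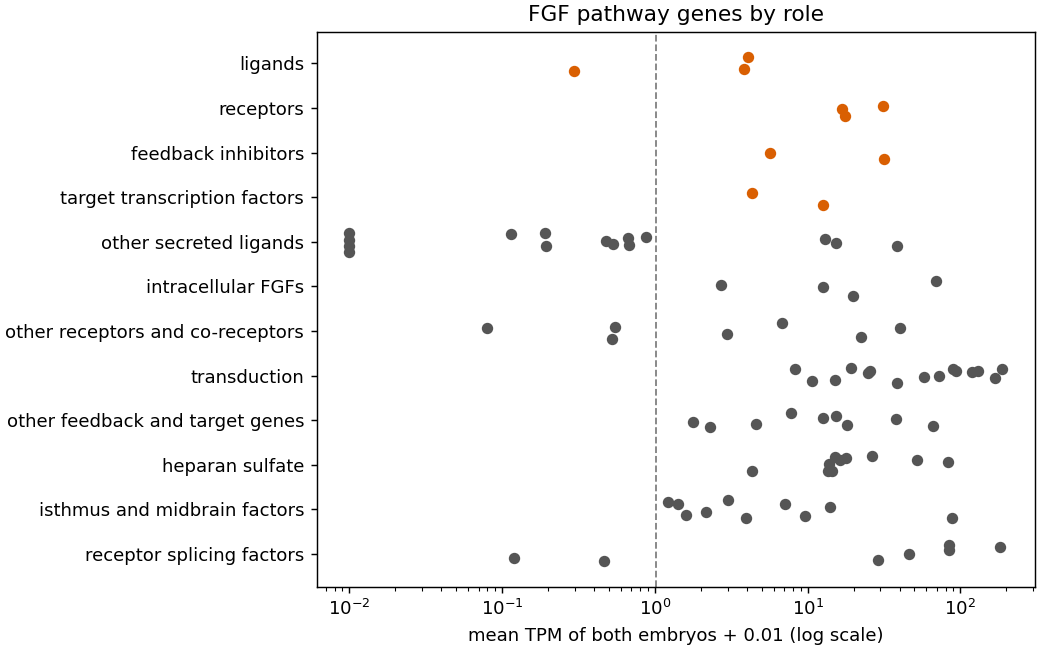
Mean TPM of both embryos plus 0.01, on a log axis, for every gene of the member roles (orange) and of the other pathway lists (grey). Transduction, heparan sulfate and midbrain genes all lie to the right of the dashed line at 1 TPM, while most secreted ligands, Fgf8 included, lie to its left.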

How the data were processed

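Expected counts and TPM of genes and transcripts, deposited by the authors for each library, were used as they stand. Expected counts are estimated reads per row, and TPM is a level per transcript length, scaled over all rows of a table with the spike-ins included. Per the file headers the tables also hold a posterior standard deviation of each count and an effective length, treated as scores, and bounds of a TPM interval, treated as a signal of unstated level; these values are the authors' deposited estimates. The tables were made on the mm10 (GRCm38) assembly with GENCODE M4, as each sample's deposited text record states. Quantifier, aligner and strand setting: not given in the sources used here. Reads of antisense overlaps therefore cannot be told apart. Per the labels' protocols, RNA over 200 nt was extracted with mirVana, 10 ng entered each library, ERCC spike-ins were added, and the general protocol is SmartSeq.

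Names, coordinates, exons and the sequences came from GENCODE M21, in which all 83 transcripts of the 10 genes were found, 75 of them with the same length. Spike-ins took 3.15% and 3.32% of counts and were left out of library sizes. Counts were rounded and TMM-scaled with edgeR 4.0.16 (R 4.3.3). DESeq2 1.42.0 gave alternative size factors. Ratios between embryos use TMM-scaled counts, log2 ratios a prior count of 0.5. The exact conditional binomial 95% intervals (scipy 1.17.1) and the floor of 3 counts cover only counting error of reads, not the spread between animals. The reads carry no molecular identifiers and are not independent molecules, so the intervals may be too narrow even for counting error. Detection meant that both libraries had a TPM of 1 or more, and ratios were called at 2-fold with at least 100 summed counts. Alternatives were other scalings, thresholds, posterior means and leaving out either library. The interval and scaling code was run on simulated counts. These had counting error only, so the run checked the code and could not show how the intervals hold under spread between animals. Named pathway genes were the top 3 of each list by mean TPM, those at least 2-fold apart, and those at 0 counts in both where a list had 5 or fewer. The members and all lists were chosen with earlier results of these data known. Spry3 could not be matched, and some pathway genes and exon sequences are not reported here. The 2 libraries share a strain and a donor label, so the SD covers only their spread.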

Additional observations from a re-analysis of the deposited data

How the results depend on the processing

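Leaving out either library gives the value of the other embryo, which for a mean of 2 lies within its SD by construction and so says nothing about stability. Posterior mean TPM gave mean levels of 0.69 for Fgf8, 30.7 for Spry2 and 13.2 for Etv5, and left 6 of the 10 genes at the same place in the order, with Fgfr1 ahead of Spry2 and Etv4 ahead of Spry1. Rescaling TPM without mitochondrial genes and spike-ins gave mean levels of 4.60 for Fgf18, 35.6 for Fgfr1, 19.0 for Fgfr3, 6.46 for Spry1, 35.9 for Spry2 and 14.2 for Etv5. The log2 ratio of Fgfr1 was -0.054 with spike-in scaling and -0.12 as a ratio of TPM, where Fgfr3 was at -0.084 and Spry2 at -0.024. The number of members at least 2-fold apart, 0 as reported, was 3 at 1.5-fold, 1 with no minimum of counts (Fgf8), 2 with spike-in scaling (Fgf17 and Fgfr2), and 1 without Fgfr2-217, an alternative chosen after seeing the data. It was also 1 with DESeq2 size factors or total counts (Fgfr2) and 1 as a ratio of TPM (Fgf17). The number of members detected fell from 9 to 6 with a threshold of 5 TPM. No alternatives were run for Wnt1 and Hs6st3. The IIIc share was 98.6% for Fgfr1 and 72.4% for Fgfr2 by posterior means, and 87.0% for Fgfr2 by expected counts. The posterior means and the isoform shares come from the authors' model, and the cause of these shifts was not tested. Fgf8, with 3 and 8 counts, is the member that depth limits most. No paired analysis was possible because both libraries belong to 1 group.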
